A study of Homo sapiens with 4 samples.

Results

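Binding of HIF-1α and of HAUSP was compared in H1299, a human non-small-cell lung cancer cell line, through the lists of ChIP-seq peaks deposited for the 2 proteins. The HIF-1α list held 4054 peaks and the HAUSP list 1379, each from 1 library, among the 6776 peaks of the 3 lists of the series. The third list held 1343 HAUSP peaks of MDA-MB-231, a breast cancer line, and was used only as a second readout of the HAUSP peaks. Cells of both lines were grown in DMEM with 10% fetal bovine serum; the labels name no treatment, and the oxygen level of these cultures is not given in the sources used here. A pair was a HIF-1α peak and a HAUSP peak of H1299 that shared at least 1 bp. There were 110 pairs, and each peak belonged to 1 pair at most. In 51 pairs both peaks lay outside the windows of 500 bp on either side of the transcription start site (TSS) of every annotated gene, and these distal pairs are described here. In the other 59 pairs the HAUSP peak touched such a window, in 56 of them together with the HIF-1α peak. With no replicate library no difference could be tested, so shares carry exact 95% Clopper-Pearson intervals and medians carry exact 95% binomial intervals, which cover counting error only. The depth behind a peak is unknown.

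HIF-1α is the oxygen-regulated subunit of hypoxia-inducible factor-1. It is degraded through the VHL ubiquitin ligase when oxygen is plentiful, and in hypoxia it accumulates, joins ARNT and binds the hypoxia-response element, whose core is ACGTG. Genes under its control include those of glycolysis, glucose uptake, collagen modification, mitophagy and several Jumonji histone demethylases. HAUSP, also named USP7, is a deubiquitinase known for its action on p53 and MDM2. It has no sequence-specific DNA-binding domain, and the experiment asked which places on chromatin it occupies together with HIF-1α.

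In 41 of the 51 distal pairs the HIF-1α peak held the core ACGTG on either strand. The core nearest to the centre of the HIF-1α peak is shown for 14 of them with 12 bases on either side. These are sites around which both proteins were found outside the TSS windows of annotated genes. The pairs of PFKFB4, PGK1 and UPRT were nevertheless at the start of an annotated transcript. They are named by the gene with the nearest start of a protein-coding transcript. The coordinates are those of hg19 (GRCh37), each sequence is read 5′ to 3′ on the strand given, and capitals mark ACGTG or its reverse complement CACGT.

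PFKFB4, chr3:48594704-48594732, plus strand: gggacgaggcctACGTGacccgcacggcc
PGK1, chrX:77359550-77359578, minus strand: ggtactagtgagACGTGcggcttccgttt
VGLL4, chr3:11684089-11684117, minus strand: cggacatcctctACGTGcgatttgaaaaa
KIAA2013, chr1:11990033-11990061, minus strand: ggtACGTGctgCACGTGctgtggacagtt
IL1RAP, chr3:190284437-190284465, minus strand: aggcaaatgagtACGTGccagatgggctg
DDIT4, chr10:74020778-74020806, minus strand: gggaagcgggggACGTGacttggagaacg
SLC2A3, chr12:8123410-8123438, minus strand: gcagcggccgggACGTGccgtgtggcacg
PTPRB, chr12:71039387-71039415, plus strand: gtggtgttagcCACGTGgcttggatttct
KCMF1, chr2:85173749-85173777, minus strand: cggccctggaatACGTGcaccacggaggt
JUN, chr1:59221345-59221373, plus strand: gtggacttcacCACGTGcacagtggctgc
ANGPTL4, chr19:8427015-8427043, minus strand: acccaagggctgACGTGcaggctgccact
PKM, chr15:72519205-72519233, plus strand: ttgttccctcctACGTGcagacaagcaca
UPRT, chrX:74493793-74493821, minus strand: gtcacccttgctACGTGggttcccacagg
MLLT3, chr9:20624983-20625011, plus strand: acggacgtccttACGTGaccccttcacaa

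None of these windows lay in an annotated exon. In PGK1 and PFKFB4 the site was in an intron of the annotated gene, and the centre of the HIF-1α peak lay 162 and 265 bp upstream of the start of a shorter transcript. In the KIAA2013, JUN and PTPRB sites the core was part of the palindrome CACGTG. Those of PFKFB4, VGLL4, IL1RAP, KCMF1, PKM, UPRT and MLLT3 had T before the core.

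Few HIF-1α peaks had a HAUSP partner. The share was 2.71% of the whole HIF-1α list and 7.98% of the HAUSP list. Outside the TSS windows it was 1.38%, or 54 of 3910 HIF-1α peaks, of which 3 had a HAUSP partner that reached into a window (at the non-coding genes SCIRT and ENSG00000274904, the latter inside ALDOA, and at STC2). On the side of HAUSP it was 5.54%, or 51 of 920 distal peaks. The share depended on the HIF-1α score, the authors' value for each peak, which was compared only within a list. All 13 distal HIF-1α peaks with a score of at least 200 overlapped a HAUSP peak (interval 75.3 to 100). In the band from 100 to 200 there were 12 of 32, or 37.5% (interval 21.1 to 56.3). From 70 to 100 there were 16 of 381, or 4.20%. In the lowest band, from 50 to 60, only 7 of 2658 did so, or 0.263% (interval 0.106 to 0.542).

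The HAUSP list was graded less steeply outside the TSS windows. Of distal HAUSP peaks with a score of at least 200, 18 of 119 overlapped a HIF-1α peak, or 15.1% (interval 9.22 to 22.8). In the band from 100 to 200 the share was 9.47%, and from 50 to 60 it was 1.99%. Of the 10 distal HAUSP peaks with the highest scores, 1 was in a pair, whereas 8 of the 10 highest at TSS windows were. At TSS windows 48.6% of the HAUSP peaks with a score of at least 200 overlapped a HIF-1α peak (17 of 35). Of the distal HAUSP peaks without an overlap, 48.0% were less than 1 Mb away from a gap of the assembly (50 kb or longer), where repeats are frequent, against 13.7% of those in pairs. The part of such places in the difference between the lists was not tested.

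**Figure D1:**
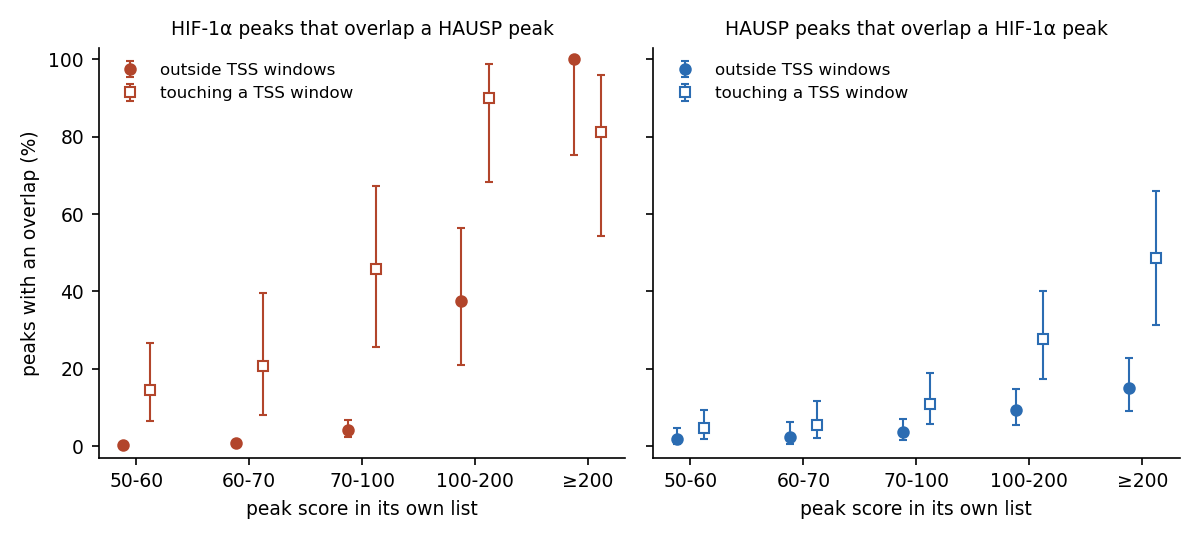
Share of peaks that overlap a peak of the other list (y axis, percent) by the score of the peak in its own list (x axis). Left, HIF-1α peaks; right, HAUSP peaks; filled circles are peaks outside TSS windows, open squares are peaks that touch a window, and bars are 95% Clopper-Pearson intervals. Outside the windows the share of HIF-1α peaks goes from 0.263% to 100%, and that of HAUSP peaks from 1.99% to 15.1%.

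The 2 scores of a pair tended to be high together. Across the 51 distal pairs Spearman's rho between them was 0.45, a description over peaks that share 2 libraries, and it was 0.57 across the 59 pairs at TSS windows. Both scores were at least 100 in 19 distal pairs, and both were lower in 13. In 15 pairs only the HAUSP peak reached 100 and in 4 only the HIF-1α peak did. The median HIF-1α score was 94.1 (interval 84.7 to 129) in distal pairs and 56.1 (55.8 to 56.5) in the 3856 distal HIF-1α peaks without an overlap. The median HAUSP score was 149 (121 to 193) against 73.1 (70.3 to 75.8) in the 869 distal HAUSP peaks without one. Widths differed less. HIF-1α peaks of distal pairs had a median width of 624 bp (552 to 669), against 560 bp (556 to 564) without an overlap, and for HAUSP the medians were 1137 bp (1059 to 1260) and 1193 bp (1157 to 1220).

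**Figure D2:**
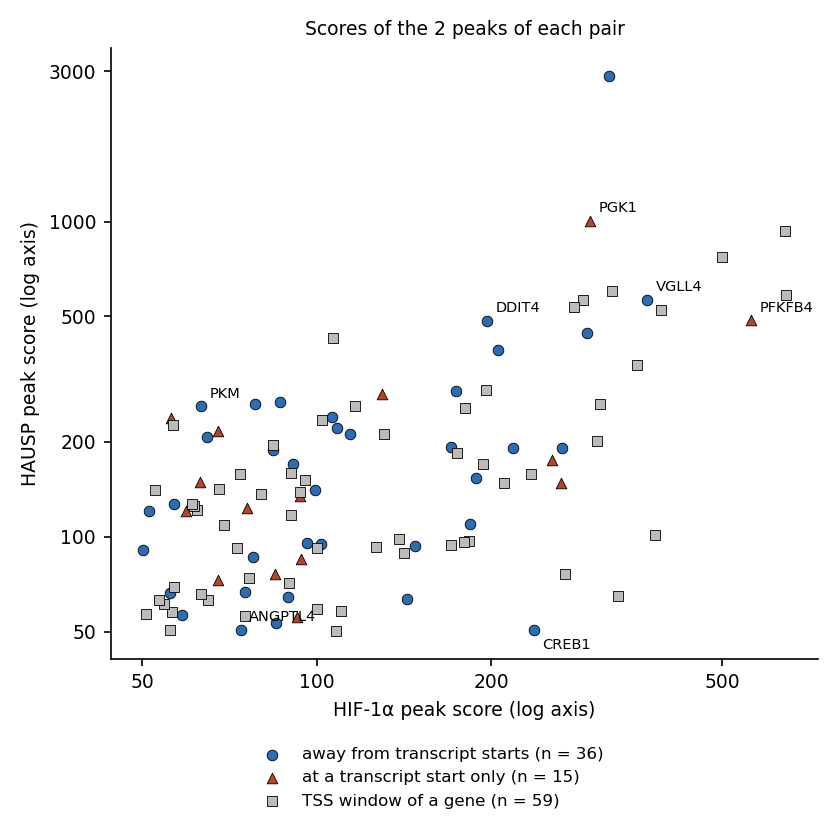
Score of the HAUSP peak (y axis) against that of the HIF-1α peak (x axis) for the 110 pairs, both on log axes. Circles are the 36 distal pairs away from every transcript start, triangles the 15 distal pairs at a transcript start only, and squares the 59 pairs at a TSS window of a gene. Both scores are at least 100 in 19 distal pairs, and CREB1 marks a pair with a HIF-1α score of 237 and a HAUSP score of 50.5.

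In distal pairs the 2 peaks lay on top of each other. The HIF-1α peak was the narrower in all 51 and lay wholly inside the HAUSP peak in 47, or 92.2% (interval 81.1 to 97.8). The 4 others were those named VGLL4, FAM72B, FMNL2 and PDE11A, in which 87.2 to 99.1% of the HIF-1α peak was covered. The centres of the deposited intervals, which are not summits, differed by a median of 101 bp (56 to 139). Peaks of these widths could have been up to a median of 875 bp apart and still have overlapped, and the offset was a median of 11.0% of that limit. The centres were within 100 bp in 25 pairs, within 200 bp in 41 and within 300 bp in 47. No side was preferred along the chromosome, as the HIF-1α centre was to the left in 26 pairs, to the right in 24 and at the same base in 1. At TSS windows the median offset was 120 bp (54 to 166), with 52 of 59 HIF-1α peaks inside the HAUSP peak.

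**Figure D3:**
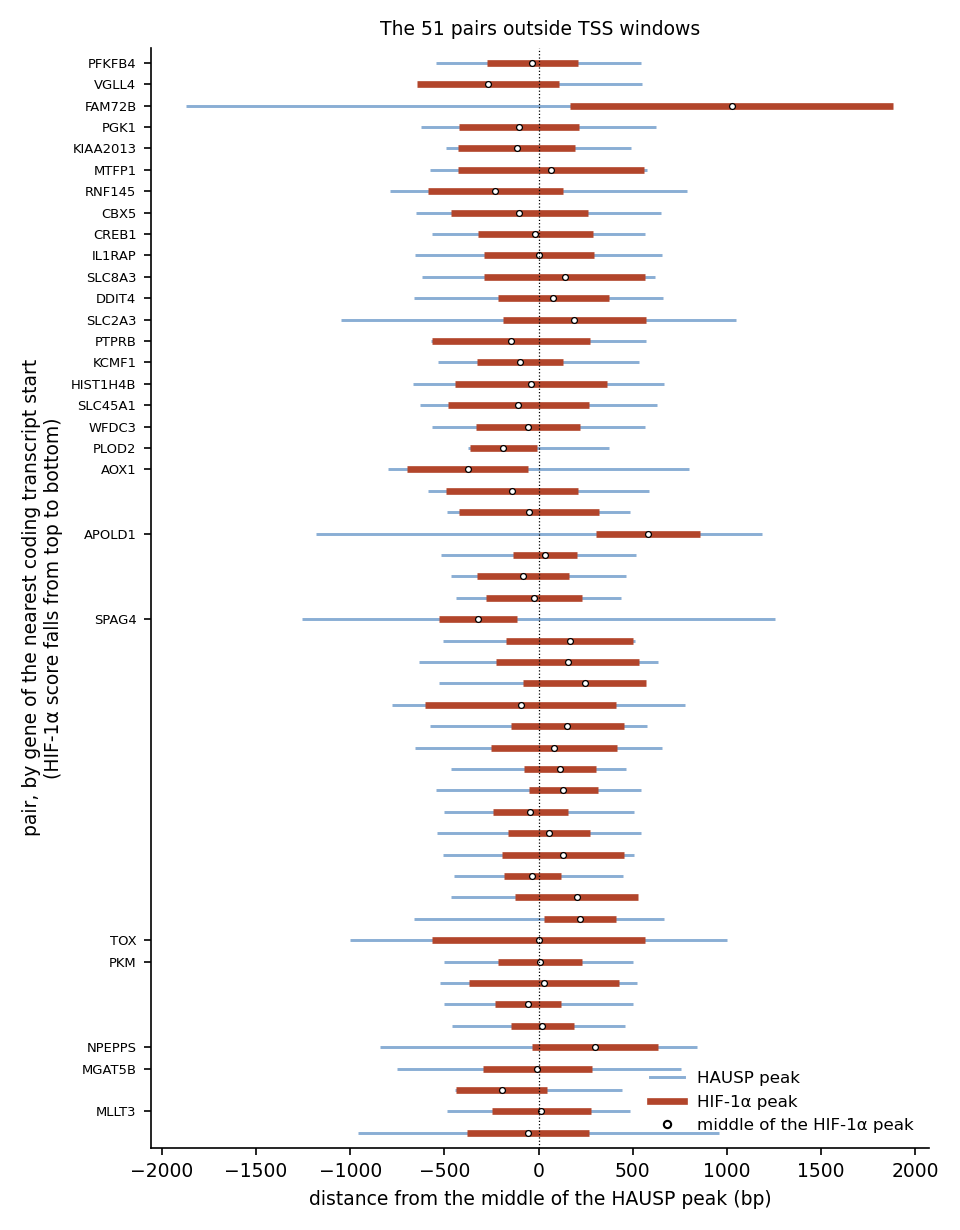
The 51 distal pairs drawn to scale around the centre of the HAUSP peak (x axis, bp). Each row is a pair, ordered by HIF-1α score, and the 20 with the highest score and those with the 5 smallest and 5 largest offsets carry the gene of the nearest coding transcript start; thin lines are HAUSP peaks, thick lines HIF-1α peaks and open circles HIF-1α centres. In 47 rows the thick line lies wholly within the thin line, and the FAM72B row has the largest offset, 1026 bp.

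The 5 smallest offsets were those named TOX (0 bp), IL1RAP (1 bp), PKM and MGAT5B (6 bp each) and MLLT3 (15 bp). IL1RAP encodes the accessory chain of the interleukin-1 receptor, PKM encodes pyruvate kinase, the last enzyme of glycolysis, and MLLT3 is a subunit of the super elongation complex. The 5 largest were those named FAM72B (1026 bp), APOLD1 (580 bp), AOX1 (377 bp), SPAG4 (322 bp) and NPEPPS (298 bp). The HAUSP peaks of these 5 pairs were wide, between 1600 and 3741 bp. Next to the offsets, no distal HIF-1α peak ended within 1000 bp of a HAUSP peak without overlapping it. Only 22 lay between 1 and 10 kb from one, 200 between 10 and 100 kb, and 3634 of 3910, or 92.9%, were farther than 100 kb from any HAUSP peak.

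**Figure D4:**
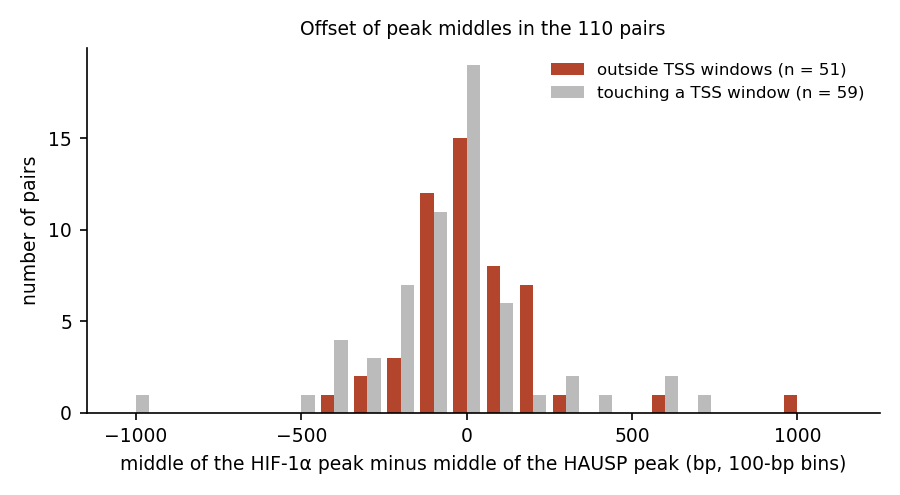
Number of pairs (y axis) by the centre of the HIF-1α peak minus the centre of the HAUSP peak (x axis, bp, bins of 100 bp) for the 51 distal pairs and the 59 pairs at TSS windows. In both groups most pairs are close to 0, with 41 and 41 pairs within 200 bp.

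The annotation gives a gene as a whole 1 start, and many genes have others. When the starts of all annotated transcripts were used, 15 of the 51 distal pairs touched a window of 500 bp around one. Among them were those at PFKFB4, PGK1, RNF145, CBX5, PLOD2, C4orf3, SPAG4, SRSF9 with DYNLL1, ZNF19, ZDBF2, PDE11A, KDM4C, UPRT and MGAT5B. The remaining 36 pairs were away from every transcript start. Between these classes the median HIF-1α score was 92.4 (67.5 to 254) and 100.4 (84.0 to 170.02), and the median HAUSP score was 148 (84.8 to 237) and 162 (94.7 to 211). Base composition differed in the values: the 201 bp around the HIF-1α centre held 58.2% G and C (47.3 to 66.2) at transcript starts and 49.3% (46.3 to 52.2) away from them. At TSS windows it was 61.7% and in distal HIF-1α peaks without an overlap 36.3% (36.3 to 36.8). Of the 36 pairs away from transcript starts, 12 were within 5 kb of a coding transcript start and 7 were more than 100 kb from one.

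The highest HIF-1α score of all distal pairs was at PFKFB4, which encodes the bifunctional enzyme that sets an allosteric activator of glycolysis. Its HIF-1α peak (chr3:48594472-48594958) scored 561, rank 4 of the list, its HAUSP peak scored 487, rank 43, and the centres were 33 bp apart. At PGK1, the phosphoglycerate kinase of glycolysis, the HIF-1α score was 296, rank 15, and the HAUSP score was 1006, rank 11, with 104 bp between the centres. The PGK1 peak (chrX:77359267-77359900) held 4 cores. RNF145, an ubiquitin ligase of the endoplasmic reticulum, had scores of 263 for HIF-1α and 148 for HAUSP. CBX5, which encodes the heterochromatin protein HP1α, had scores of 254 and 175. Neither of these 2 HIF-1α peaks held the core. PLOD2, a lysyl hydroxylase of collagen, had scores of 129 and 284 with the centres 187 bp apart. These 5 pairs at transcript starts were among the 20 distal pairs with the highest HIF-1α score, and in 3 of them, at PFKFB4, PGK1 and RNF145, the HAUSP peak overlapped one of MDA-MB-231.

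Away from transcript starts the highest HIF-1α score was in an intron of VGLL4, a cofactor of TEAD transcription factors, 1448 bp downstream of a transcript start and 128883 bp from the start of the gene. That peak (chr3:11683563-11684320) scored 371, rank 8, and its HAUSP peak scored 565, rank 31, with 269 bp between the centres. Upstream of KIAA2013, 3444 bp from its start, the scores were 292 for HIF-1α and 442 for HAUSP, and the peak held 3 cores. The start of PLOD1, another collagen lysyl hydroxylase, was within 50 kb of that pair. Next to MTFP1, which takes part in mitochondrial fission, the pair lay 1426 bp upstream, in an annotated exon, with scores of 264 and 192. In an intron of IL1RAP the scores were 218 and 191. In an exon of SLC8A3, a sodium-calcium exchanger, they were 205 and 391, at 14547 bp from the nearest transcript start. The HAUSP peaks of these 5 pairs overlapped one of MDA-MB-231. A pair near CREB1 came between those of MTFP1 and IL1RAP in HIF-1α score, and its HAUSP peak overlapped none of that line.

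DDIT4, an inhibitor of mTORC1 that is induced by hypoxia, had a distal pair 12754 bp upstream of its start (chr10:74020629-74021220). There the HIF-1α score was 197, rank 30, and the HAUSP score was 485, rank 44, and the centres were 78 bp apart. A second pair lay at the TSS of the gene, 12742 bp from the distal one, with a HIF-1α score of 179 and a HAUSP score of 95.9. The distal site had the higher score in both lists. This was the shortest distance between a distal pair and a pair at a TSS window, and the next, 63307 bp, was between the pair in an exon of APOLD1 and the pair at its TSS. In an intron of SLC2A3, the glucose transporter GLUT3, 48065 bp from the start of the gene, the scores were 188 and 153 and the peak held 4 cores. The sites in an intron of PTPRR with PTPRB as the nearest gene (183 and 109.6) and near KCMF1 (173 and 291) also had HAUSP peaks found in MDA-MB-231. The pair near the histone gene HIST1H4B (170.02 and 193), 1804 bp upstream, did not.

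Ranks in the 2 lists did not match in every pair. A pair with a high rank for HIF-1α and a low rank for HAUSP lay in an intron of a non-coding gene, 134680 bp from the start of CREB1, the nearest coding gene (chr2:208259474-208260088). Its HIF-1α score was 237, rank 25, and its HAUSP score was 50.5, rank 1342 of 1379. The opposite was seen at PKM (chr15:72518966-72519411), where the HIF-1α score was 63.2, rank 895, and the HAUSP score 259.6, rank 105. It was also seen at KDM4C, a demethylase of histone H3, with scores of 67.5 and 216. At ANGPTL4, a secreted inhibitor of lipoprotein lipase, the pair lay 1173 bp upstream and both scores were low, 73.9 and 50.7. The last of the 20 by HIF-1α score were near SLC45A1 (148 and 93.7), in an intron of WFDC3 (143 and 63.3) and 50289 bp from a transcript start of AOX1 (114 and 211). JUN, a subunit of the transcription factor AP-1, had a pair 28341 bp downstream of its start with scores of 99.2 and 141. This pair was picked for its gene and met none of the criteria for named pairs.

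A pair on chromosome 1 from 121483881 to 121485598 stood apart. It was named FAM72B only because that start, 645327 bp away, was the nearest of a coding transcript, and it lay within 1 Mb of an assembly gap. Its HAUSP score of 2905 was the highest of that list, and its HIF-1α score of 319 was rank 12. Its HAUSP peak was 3741 bp wide. In all, 7 of the 51 distal pairs were this close to a gap, and without them 44 pairs remained with a median offset of 99.5 bp.

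Sequence at the shared sites was examined with short words known from hypoxia-response elements and from other factors. The word ACGTG was within 100 bp of the HIF-1α centre in 26 of 51 distal pairs, or 51.0% (interval 36.6 to 65.2). It was there in 264 of 3856 distal HIF-1α peaks without an overlap, or 6.85% (6.07 to 7.69). In windows of equal length 2000 bp to either side the shares were 7.84% and 6.64%, so of these 2 groups only the peaks in pairs stood above their own flanks. This was not particular to distal pairs. Pairs at TSS windows held the word in 42 of 59, or 71.2% (57.9 to 82.2), and in 11.0% of their flanks. Among distal HIF-1α peaks with a score of at least 100 it was present in 11 of 23 with an overlap and 4 of 20 without, and these intervals overlap (26.8 to 69.4 and 5.73 to 43.7). G and C content differed between the groups, as given above. Within the band of 45 to 55% the shares were 10 of 20 with an overlap and 33 of 260 without, or 12.7% (8.90 to 17.4). Around the HAUSP centres of distal pairs the core was present in 30 of 51, or 58.8% (44.2 to 72.4), against 17.0% (14.6 to 19.7) in distal HAUSP peaks without an overlap. In their flanks the shares were 5.88% and 10.2% (8.80 to 11.7), so both HAUSP groups stood above their own flanks. At TSS windows the core was in 55.9% of HAUSP peaks in pairs and in 31.0% of those without an overlap. For scale, 21.4% of 35116 promoters of 300 bp from RefSeq held the word.

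With the core chosen anew for each centre, a core lay as near to the HAUSP centre as to the HIF-1α centre. In the 41 distal pairs with a core in the HIF-1α peak, the nearest core was a median of 57 bp (36 to 114) from the HIF-1α centre and, chosen anew, 57 bp (41 to 77) from the HAUSP centre. The shorter of these 2 distances was the one to the HAUSP centre in 24 pairs and the one to the HIF-1α centre in 17. In a peak with several cores the 2 distances can belong to different cores, so these counts do not place a single core nearer to either centre. In 22 of the 51 the HIF-1α peak held 2 or more cores, and in 10 it held none. Of the 81 cores in distal pairs, 35.8% had T before them and 38.3% had C after them, against 27.4% and 20.7% of the 919 cores in distal HIF-1α peaks without an overlap. In pairs at TSS windows these shares were 26.9% and 40.3% of 134 cores. Several cores can lie in 1 peak, so these shares carry no interval. The 6-base word TACGTG was within 100 bp of the HIF-1α centre in 14 of 51 distal pairs, or 27.5% (15.9 to 41.7), and in 0 of 102 flanks (upper limit 3.55%). At TSS windows 20 of 59 pairs held it, or 33.9% (22.1 to 47.4). Of the 20 distal HIF-1α peaks without an overlap that scored at least 100, 3 held it, or 15% (3.21 to 37.9), and this interval overlaps that of the distal pairs. CACGTG, the E-box form of the same core, was within 100 bp of the HIF-1α centre in 4 of 51 distal pairs.

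The word TGANTCA, recognised by AP-1 dimers of JUN and FOS proteins, was within 100 bp of the HIF-1α centre in 10 of 51 distal pairs, or 19.6% (9.82 to 33.1). It was there in 6.86% of their flanks and in 7.73% (6.90 to 8.62) of distal HIF-1α peaks without an overlap. Of the 20 distal HIF-1α peaks without an overlap that scored at least 100, 3 held it, or 15% (3.21 to 37.9), and 12.5% of their flanks did. This interval overlaps that of the 51 distal pairs, which were of all scores. At TSS windows it was in 10.2% of pairs (3.82 to 20.8). The 10 pairs were those named VGLL4, CREB1, KCMF1, HIST1H4B, SLC45A1, ASAP2, SGSM2, ANGPTL4, UPRT and DDIT4L, and 9 of them were away from transcript starts. In 5 of the 10 ACGTG was also within 100 bp and in 5 it was not. GCGTG, the other form of the core, was in 11 of 51 distal pairs, or 21.6% (11.3 to 35.3), and in 13.7% of flanks. ATGGCGGC, a word bound by YY1, was in 0 of 51 (upper limit 6.98%) and in 5 of 59 pairs at TSS windows (2.81 to 18.7). Around the HAUSP centres of the distal pairs it was in 1 of 51. It was in 0.0778% of distal HIF-1α peaks without an overlap and in 3.00% of the RefSeq promoters, which are longer windows. The interval of the distal pairs holds both shares, so that count does not set them apart. The interval of the pairs at TSS windows holds the share of the promoters and lies above that of the distal HIF-1α peaks. In the flanks of the pairs at TSS windows the word was in 0 of 118 (upper limit 3.08%).

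Distal pairs lay mostly in genes. By the HIF-1α centre 12 were in exons, 26 in introns and 13 between genes, so 74.5% (60.4 to 85.7) were in a gene body. For distal peaks without an overlap the share in a gene body was 62.1% (60.5 to 63.6) for HIF-1α and 46.6% (43.2 to 49.99) for HAUSP. Away from transcript starts it was 63.9% (46.2 to 79.2), close to that of the HIF-1α peaks without an overlap. The nearest start of a coding gene was a median of 24229 bp (9077 to 48065) from the HIF-1α centre, against 116668 bp (110617 to 125225) for those without an overlap. At a HIF-1α score of at least 100 the medians were 24460 bp (8260 to 106018) and 82481.5 bp (24309 to 386569), with intervals that overlap. The pairs were spread over 20 chromosomes, with 7 on chromosome 2 and 5 each on chromosomes 1 and 12.

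Genes of hypoxia and of HAUSP were followed in 11 lists with 99 genes in all. The lists were chosen with earlier results of these data known, so the counts describe these genes and test nothing. A distal pair lay within 50 kb of the start of 7 of them, SLC2A3, PFKFB4, DDIT4, ANGPTL4, PLOD1, PLOD2 and KDM4C, against 92 of 20163 coding genes, or 0.456%. Any pair lay within 50 kb of 17 of the 99, against 1.19% of coding genes. The listed genes were also near peaks of either protein more often. A HIF-1α peak was within 50 kb of 27 of the 99 and a HAUSP peak of 29, against 10.1% and 9.94% of coding genes. A pair touched the window of an annotated transcript start of 13 listed genes, against 77 coding genes in all, or 0.382%. In glycolysis and glucose uptake these were 5 of 21: PFKFB4, ALDOA, PGK1, ENO1 and LDHA. In the list of Jumonji demethylases they were 3 of 9, KDM3A, KDM4B and KDM4C, and in that of collagen hydroxylases 2 of 7, P4HA1 and PLOD2. DDIT4 and ANKRD37 were those of 8 genes of mitophagy and stress, and TFRC, the transferrin receptor, that of 5 genes of iron and haem.

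No pair lay within 50 kb of the 10 genes of oxygen sensing and HIF subunits, the 5 repressors, the 4 genes of pH control, the 8 genes of the epithelial-mesenchymal transition or the 13 partners and substrates of HAUSP. With 1.19% of coding genes near a pair, a count of 0 in lists of this size is near the background and sets none of them apart. In the list of 10 angiogenic and secreted factors a pair was within 50 kb of ADM, ANGPTL4 and STC2. VEGFA had a HAUSP peak at its TSS and no HIF-1α peak within 50 kb.

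At TSS windows the highest HIF-1α scores of pairs were at NARF (645, with a HAUSP score of 586), KDM3A (641 and 930.15) and the promoter shared by ZNF292 and a non-coding gene (499 and 773.5). The next one named here was at SCIRT, a non-coding RNA, where the scores were 382 and 101 and only the HAUSP peak touched the window. The HIF-1α peak with the highest score of all, 1236, at the start of GPI (glucose-6-phosphate isomerase) and of a non-coding gene, was in no pair: the nearest HAUSP peak of H1299 was 280612 bp away. The HIF-1α peaks at GAPDH (280.04) and RRP12 (263) likewise had no HAUSP peak in H1299. These 3 places, chosen after their values were seen, each had a HAUSP peak in MDA-MB-231, and they were the only 3 of 88 HIF-1α peaks at TSS windows without an H1299 partner for which this was so.

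The HAUSP peaks of MDA-MB-231 gave a readout of the distal pairs that was not used to choose them. Of the 51 HAUSP peaks in distal pairs, 30 overlapped one of that line, or 58.8% (44.2 to 72.4), and of the 869 distal HAUSP peaks without HIF-1α 418 did, or 48.1% (44.7 to 51.5). More than 1 Mb from assembly gaps the shares were 25 of 44, or 56.8% (41.0 to 71.7), and 175 of 452, or 38.7% (34.2 to 43.4). The share followed the HAUSP score in both groups, and within each band of that score the order of the groups was the other way round. From 50 to 100 it was 29.4% in pairs (10.3 to 55.96) and 33.3% without HIF-1α (29.6 to 37.2). From 100 to 200 it was 62.5% (35.4 to 84.8) and 75.2% (67.5 to 81.8). At a score of at least 200 it was 83.3% (58.6 to 96.4), or 15 of 18, and 97.0% (91.6 to 99.4), or 98 of 101. The intervals of the groups overlapped in every band. More than 1 Mb from assembly gaps the share in pairs was the higher one from 50 to 100 (33.3% against 27.6%) and the lower one in the other bands (57.1% against 70.3%, and 80% against 91.7%). Away from transcript starts 24 of 36 HAUSP peaks in pairs were found in MDA-MB-231, and at transcript starts 6 of 15 were, with intervals of 49.0 to 81.4 and 16.3 to 67.7 that overlap. Of the 3856 distal HIF-1α peaks without a HAUSP peak in H1299, 0 overlapped a HAUSP peak of MDA-MB-231 (upper limit 0.0956%). In these lists every distal HIF-1α peak that met a HAUSP peak of the other line also met one of H1299.

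Distal peaks outside pairs had other neighbourhoods. The 5 highest HIF-1α scores among them were in introns of KCNMA1 (176), NSD1 (151) and ANO6 (133), 24309 bp upstream of DNAH5 (143) and in an intron of a non-coding gene with TRIB1 as the nearest coding gene (131). Their nearest HAUSP peaks were between 62322 and 10711332 bp away. The core was within 100 bp of the centre in 4 of these 5 peaks. The 5 highest HAUSP scores outside pairs were in an intron of HFM1 (2536) and between genes with TPTE (2223), CENPC (1888), PRIM2 (1856) and EMB (1394) as the nearest coding gene. Each of these 5 HAUSP peaks overlapped one of MDA-MB-231, and 3 of them, all but those near HFM1 and CENPC, were within 1 Mb of an assembly gap.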

How the data were processed

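ChIP-seq peaks of HIF-1α in H1299 and of HAUSP in H1299 and MDA-MB-231 were used, with 1 library each of the 4 samples; the H1299 input was not used here. Per the submitters' processing notes and the study's methods, the authors mapped Illumina reads to hg19 with Bowtie 0.12.7, keeping unique hits, and called peaks with MACS 1.4.2 at default settings. The control for calling is not given in the sources used here. The deposited score is the authors' value for a peak; its lowest values are near 50, the default MACS threshold on its scale. The HIF-1α list is marked as free of duplicate reads, names chromosomes in another way and holds no peak on chromosome Y against 44 in the HAUSP list of H1299, so the lists may have been made differently.

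Starts were converted to count from 1, and gene and transcript starts came from GENCODE release 44 on GRCh37. Pairs, offsets, places, cores and gene lists were computed with samtools 1.23.1, pysam 0.24.0, scipy 1.17.1, matplotlib 3.10.9, pandas 2.3.3 and numpy 2.4.6 under Python 3.11.15. The overlap steps were checked on simulated data. No test was run. Members, words and lists were chosen with earlier results of these data known. Named were the 20 distal pairs with the highest HIF-1α score, the 5 smallest and largest offsets, the 5 highest pairs at TSS windows, the 5 highest distal peaks of each list without an overlap and listed genes with a pair. Other pairs, such as that of JUN and some of those shown by sequence, were named outside these criteria. Some items chosen by these criteria were left out and are not reported here. RefSeq promoters (GRCh38) gave only word shares. Alternatives changed the overlap, score, window, annotation, gaps and words.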

Additional observations from a re-analysis of the deposited data

How the results depend on the processing

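Of 111 alternatives to the 10 results, 97 stayed within 1.5 times a count or inside the 95% interval of a median or share, and 14 did not. With a score of at least 70 in both lists there were 71 pairs and 32 distal pairs, with a median HIF-1α score of 139, and 75% of distal HAUSP peaks in pairs were found in MDA-MB-231. With at least 100 these values were 40, 19, 205 and 84.2%, with a median HAUSP score of 239.9 and a median HIF-1α width of 717 bp. These follow from leaving out low scores. When the MDA-MB-231 list stood in for the H1299 list of HAUSP there were 66 pairs and 30 distal pairs. A TSS window of 5000 bp left 27 distal pairs. In the whole HIF-1α peak, a longer window, ACGTG was in 80.4%. The starts of all transcripts, an alternative chosen after seeing the data, left 36 distal pairs. Requiring that most of the HIF-1α peak be covered or the HIF-1α centre inside the HAUSP peak changed none of the 10 results. No paired analysis was possible because there is 1 library behind every list. Read depth is unknown, so a missing partner cannot be told apart from a peak under the threshold.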
